A study of Mus musculus with 2 samples.

Results

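Zfp608 is the mouse gene to which the most POU3F1 peaks were assigned in embryonic retina, and Zfp609 is its paralog on another chromosome. Both were chosen by name from a table that pairs genes with POU3F1 peaks, Zfp608 for its number of assigned peaks and Zfp609 for its kinship, so these counts are given as a description and carry no test. They are 2 of the 2323 genes in that table. Together they held 29 of 2652 peaks, 28 at Zfp608 and 1 at Zfp609, and 31 peaks lay in the surrounding window of chromosome 18 from 53.5 to 56.5 Mb.

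The peaks come from CUT&RUN, in which an antibody tethers a nuclease to a chromatin protein and the DNA cut loose around it is sequenced. Retinas were taken from wild-type (WT) CD1 embryos on embryonic day 14. An antibody to the POU-domain factor POU3F1 was used for 1 library, and rabbit IgG for 1 library. The deposited list holds peaks of the POU3F1 library, without a replicate. Whether the IgG library served as the control of the peak caller is not stated, so the folds, q-values and backgrounds below may rest on it, and no other value of the IgG library was used. Whole retinal tissue was used, and the number of embryos is not given in the sources used here. No expression was measured, so the labelled tissue was not checked against expressed markers.

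ZFP608 and ZFP609 are large nuclear proteins with a single zinc finger. In mouse cortex ZFP609 binds the cohesin loader NIPBL and the Integrator complex and acts in the migration of newborn neurons. In mouse thymocytes ZFP608 represses the recombinase genes Rag1 and Rag2. Their fly counterpart, known as Brakeless or Scribbler, is a corepressor that works with Atrophin and the nuclear receptor Tailless and is needed for photoreceptor axons to stop in their target layer. POU3F1 itself, also called OCT6 or SCIP, is best known from Schwann cells and the neural lineage, and POU factors bind an octamer of DNA.

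POU3F1 peaks lay on both sides of Zfp608, and all but 1 of those assigned to it lay more than 50 kb from its start. The gene lies on the minus strand of chromosome 18, with its body at 54888045 to 54992591 (mm10) and the transcription start site (TSS) used for assignment at 54990180. Of its 28 peaks, 16 lay upstream and 12 downstream of the TSS, over 1.95 Mb from 53993200 to 55944789. None lay within 5 kb of the TSS, 1 lay within 50 kb, 14 lay at 50 to 500 kb and 13 lay beyond 500 kb. The share beyond 50 kb was 96.4% for Zfp608, against 76.2% over all 4427 pairs of a gene and a peak. Beyond 500 kb it was 46.4% for Zfp608, against 15.6% over all pairs. The median distance was 475 kb for Zfp608, against 161 kb over all pairs. Zfp608 is the only protein-coding gene in a span of 2.43 Mb, and a gene could be given peaks up to 1 Mb away. Near neighbours cut that reach short, so these contrasts also depend on gene spacing. How much of them goes with spacing was not tested.

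**Figure D1:**
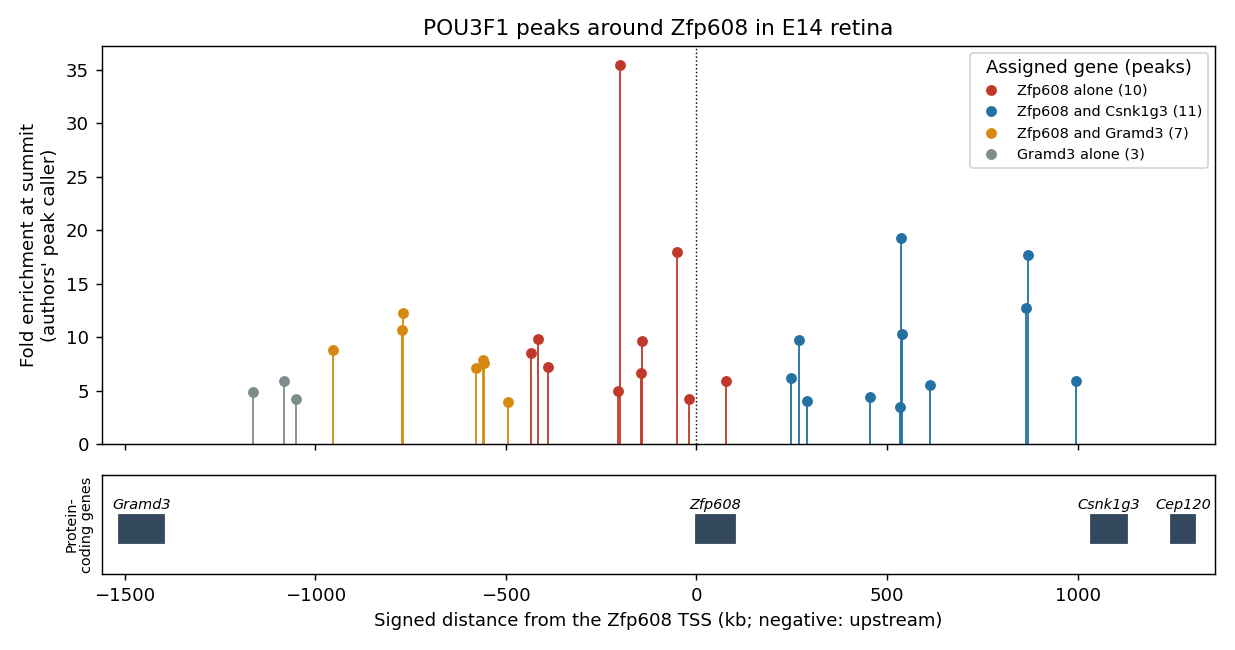
Fold enrichment at the summit, as given by the authors' peak caller, of the 31 peaks of the chromosome 18 window, plotted against signed distance in kb from the Zfp608 TSS, with upstream to the left and the bodies of protein-coding genes drawn to scale below. Colours give the assigned gene, with 10 peaks of Zfp608 alone around the TSS, 11 shared with Csnk1g3 downstream, 7 shared with Gramd3 upstream and 3 of Gramd3 alone at the far left.

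The nearest peak to the start of Zfp608 lay 20110 bp upstream, at 55010190 to 55010391, with a summit fold of 4.21 (the authors' enrichment over background) and a summit pileup of 27 fragments. The pileup is the number of fragments that cover the summit. It overlapped Gm4221, a long non-coding RNA (lncRNA) gene whose body begins beside the start of Zfp608. The next one, 51167 bp upstream at 55041141 to 55041554 and also in Gm4221, had 17.9-fold enrichment and 63 fragments. The single peak inside the body of Zfp608, 77910 bp downstream of the TSS at 54912060 to 54912480, had 5.89-fold enrichment from 11 fragments. Exons were not separated from introns.

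The peak of highest fold among the 28 lay 200135 bp upstream of the TSS at 55189889 to 55190742, outside annotated protein-coding and lncRNA genes, with 35.5-fold enrichment, 113 fragments at the summit and a length of 854 bp. By fold it ranked 35 in the whole list of 2652, and it was the only Zfp608 peak among the first 100. A weaker peak of 4.98-fold followed 5333 bp further upstream.

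Downstream of the gene, the strongest peak lay in a lncRNA gene. Redrum, a lncRNA gene best known from red blood cell precursors, held peaks at 54451133 to 54451549 (10.3-fold, 20 fragments) and at 54452537 to 54453282 (19.3-fold, 65 fragments). Another peak of 3.43-fold, at 54454946 to 54455275, lay just outside its body. It was the weakest of the 28 by fold and the only 1 of them with a q-value above 0.01. All 3 lay 535 to 539 kb downstream of the Zfp608 TSS and within 4.14 kb of each other.

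Further downstream, at 863904 and 870805 bp from the TSS, lay a pair of peaks of 12.8-fold and 17.7-fold, from 25 and 35 fragments. On the upstream side a pair at 769045 and 772177 bp had 12.2-fold and 10.7-fold enrichment, from 49 and 48 fragments. In both pairs the intervals were under 7 kb apart. These strong distant pairs lay closer to the TSS of the other gene they were assigned to, Csnk1g3 downstream and Gramd3 upstream.

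Fold and fragments ranked the peaks differently. The peak with the most fragments, 145 at its summit, lay 290958 bp downstream at 54699086 to 54699358 and had 4.06-fold enrichment over a background of 34.9 fragments, the number expected there under the peak caller's own values. Its neighbour 270215 bp downstream had 99 fragments over a background of 9.25 and 9.76-fold enrichment. At 1206 bp it was the longest of the 28. A peak 389631 bp upstream had 91 fragments over a background of 11.8 and 7.18-fold enrichment. At 7 of the 28 peaks the background was at the lowest value common in the list, 1.04 fragments, as it was at 30.2% of the 2581 other peaks for which it could be recovered.

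Set beside the rest of the list, the Zfp608 peaks were longer and rested on more fragments. Their median fold was 7.72 (quartiles 5.81 and 10.4), against 6.36 (4.91 and 8.84) for the 2624 other peaks. The median summit pileup was 27 fragments at Zfp608 (quartiles 17 and 48.3, range 8 to 145), against 19 fragments elsewhere (quartiles 13 and 33). Pileups under 20 fragments made up 8 of 28 Zfp608 peaks, 28.6%, against 51.7% of the others. The median background was also higher, 2.49 fragments at Zfp608, against 1.61 fragments elsewhere. The median length was 428.5 bp at Zfp608, against 351 bp elsewhere. At least 10-fold enrichment was reached by 8 of the 28, 28.6%, against 18.7% of all peaks, and a q-value under 0.001 by 25 of the 28, 89.3%, against 92.0% of all peaks. The quartile ranges of fold and of pileup overlapped between the Zfp608 peaks and the others. With 1 library these differences have no replicate check, and they were not tested.

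**Figure D2:**
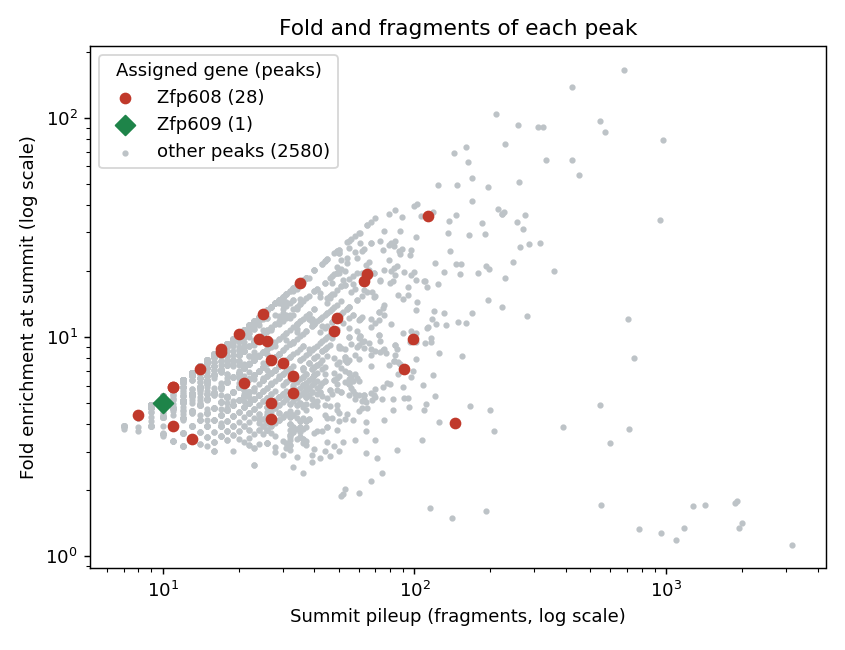
Fold enrichment at the summit against summit pileup in fragments, both on log scales, for the 28 Zfp608 peaks, the 1 Zfp609 peak and the other peaks with a recovered pileup. The Zfp608 peaks run from 8 to 145 fragments and lie inside the cloud of the other peaks, with the strongest at 113 fragments and 35.5-fold, while the Zfp609 peak lies near the lower end with 10 fragments.

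Within the locus, upstream and downstream peaks overlapped in strength. The 16 upstream peaks had a median fold of 8.19 and ranged from 3.93 to 35.5, and the 12 downstream peaks had a median of 6.03 and ranged from 3.43 to 19.3. Median pileups were 27 fragments upstream and 23 fragments downstream. Within 250 kb of the TSS lay 6 upstream peaks and 2 downstream peaks. From 750 to 1000 kb each side held 3.

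The 28 peaks were unevenly spaced and often came in small groups. Joining peaks at most 50 kb apart gave 15 groups, 9 of which held 2 or 3 peaks and 6 of which held a single peak. The distance between neighbours had a median of 53.0 kb and ran from 987 bp to 251 kb. Another peak lay within 10 kb of 13 of the 28, 46.4%, against 21.2% of all peaks, a share that follows in part from choosing a gene for its many peaks. By fragments, the group 248 to 291 kb downstream summed to the most, 265 at its 3 summits, and the group at 200 to 206 kb upstream followed with 140.

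Almost all the peaks lay outside protein-coding genes. Just 1 of the 28 overlapped a protein-coding gene, Zfp608 itself, against 47.8% of all peaks. Its body fills 4.30% of the span between the flanking genes, in which it is the only protein-coding gene. Annotated lncRNA genes were overlapped by 6 of the 28, 21.4%, against 13.0% of all peaks, and such genes cover 15.3% of the span. Besides Gm4221 and Redrum with 2 peaks each, Gm34233 held 1 (8.54-fold, 432951 bp upstream) and Gm52332 held 1 (8.84-fold, 954391 bp upstream). Of the 18 lncRNA genes that lie wholly inside the span, these 4 had a peak.

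Assignment to Zfp608 rests on distance alone, and most peaks were also given to a neighbour. GREAT, the tool that made the table, extends the domain of each gene up to 1 Mb until it meets the basal domain of the next gene. Of the 28 peaks, 11 were shared with Csnk1g3, which encodes a casein kinase of the gamma type, 7 were shared with Gramd3, a gene of a protein with a lipid-binding GRAM domain, and 10 were given to Zfp608 alone. For 21 of the 28 the TSS of Zfp608 was the nearest one assigned, and for 7 that of the neighbour was nearer. The 10 peaks of Zfp608 alone had a median fold of 7.86, those shared with Gramd3 7.85 and those shared with Csnk1g3 6.16.

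The limit of 1 Mb left out peaks upstream but none downstream, where no further peak lay between the farthest one and Csnk1g3. The farthest peaks counted lay 996832 bp downstream and 954391 bp upstream. Just beyond the limit, at 1051, 1081 and 1163 kb upstream, lay 3 peaks given to Gramd3 alone, with folds from 4.20 to 5.89 and 14, 11 and 9 fragments. Each of these folds lies below the Zfp608 median of 7.72 and inside the range of the 28. All 31 peaks lay between the body of Csnk1g3, which ends at 53955684, and that of Gramd3, which begins at 56387485.

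No other protein-coding gene of the window had an assigned peak. Domains stop at the next gene, so genes beyond Csnk1g3 and Gramd3 could not be given the peaks of the window, which lie between. Prdm6, which encodes a transcriptional repressor of smooth muscle, and Cep120, which encodes a centriole protein, had none, nor did the flanking genes Ppic, a cyclophilin gene, and Aldh7a1, an aldehyde dehydrogenase gene. Below the first peak of the window, 1897 kb of chromosome 18 held none, and above the last one the next lay 468 kb away. The window held 29.2% of the 106 peaks of chromosome 18. The 75 peaks elsewhere on this chromosome had a median fold of 5.63 and a median pileup of 17 fragments.

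Windows with so many peaks were rare in the genome. The 31 peaks of this window compare with a median of 2 (quartiles 1 and 4) over 5317 other windows of 3 Mb, moved in steps of 500 kb along the autosomes, X and Y. The highest of those, on chromosome 19, had 34, and no other reached 31. Neighbouring windows share peaks, and this window was picked for its count.

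**Figure D3:**
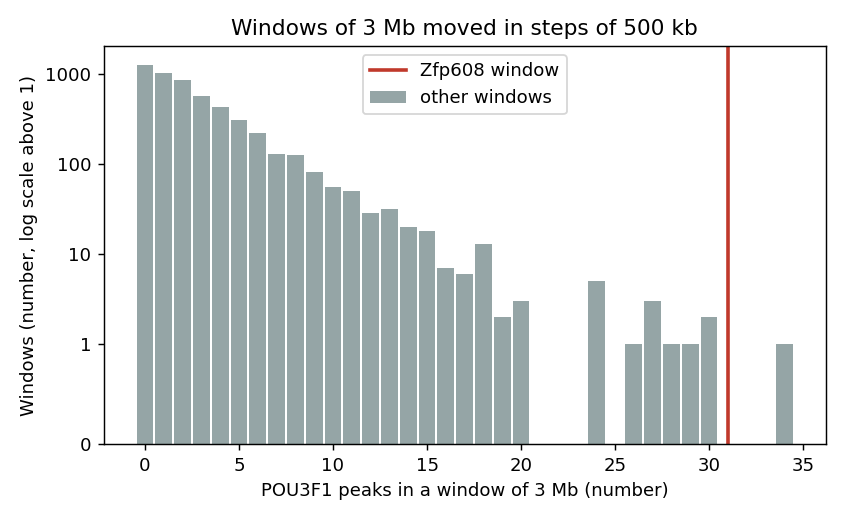
Number of windows of 3 Mb, on an axis that is logarithmic above 1, by the number of POU3F1 peaks they hold, for 5317 windows that do not touch the Zfp608 window. The red line marks the Zfp608 window with 31 peaks, which lies above all other windows but 1, with 34.

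Since domains stop at the next gene, the count was also set against the length of the span between neighbouring genes. From Csnk1g3 to Gramd3 the span is 2.43 Mb, with 12.7 peaks per Mb. Among the 744 other genes that do not overlap a protein-coding neighbour and have a span over 1 Mb, the median was 0.595 peaks per Mb (quartiles 0 and 1.46), and 287 had no peak in their span. Of these 745 genes, Zfp608 had rank 1 by number of peaks and rank 3 by peaks per Mb. Tmem161b, with 16.4 per Mb, and Tle4, with 13.6 per Mb, ranked above it. Of the 231 other genes with spans over 2 Mb, the highest count was 19 and the median 2. Spans of neighbours overlap, so the peaks of the Zfp608 span also enter those of Csnk1g3 and Gramd3.

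**Figure D4:**
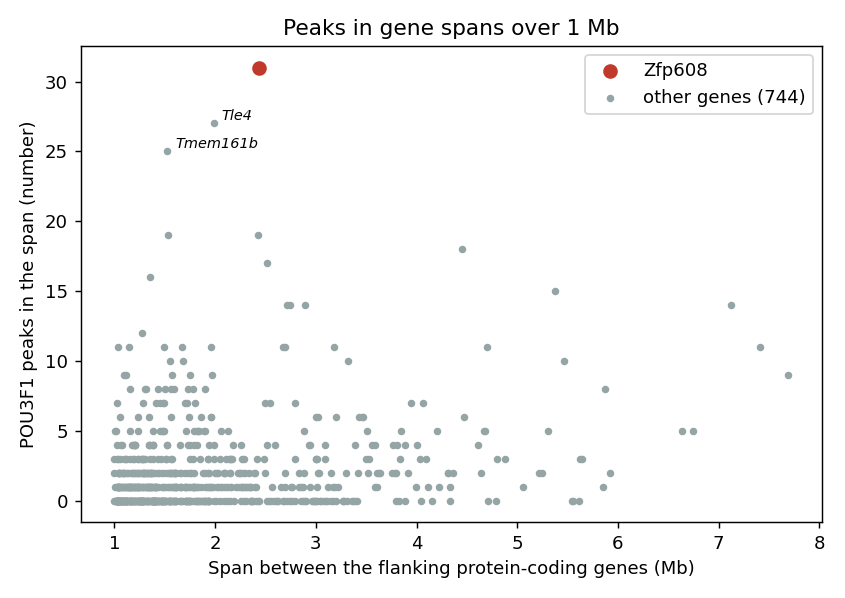
POU3F1 peaks in the span between the flanking protein-coding genes against the length of that span in Mb, for Zfp608 and the 744 other genes with spans over 1 Mb. Zfp608 lies highest, with 31 peaks in 2.43 Mb, above the labelled genes Tle4 and Tmem161b, and most other genes lie near 0 at every length.

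The genes most like Zfp608 in number of assigned peaks were Tmem161b with 26, Mef2c with 19, Tle4 with 17, Dach1 with 16 and Erdr1 with 14. Likeness was measured by the number of peaks and then by the share beyond 50 kb, over the 2323 genes of the 1 POU3F1 list. Beyond 50 kb lay 96.4% of the peaks of Zfp608, against 100% for Tmem161b, 94.7% for Mef2c, 87.5% for Dach1, 82.4% for Tle4 and 35.7% for Erdr1. Spans between protein-coding neighbours were 2.43 Mb for Zfp608 and for Mef2c, 2.52 Mb for Dach1, 1.99 Mb for Tle4 and 1.52 Mb for Tmem161b. Those of Mef2c (81797156 to 84222295) and Tmem161b (83667080 to 85189376) overlap on chromosome 13, so their counts may not be separate. How many peaks Mef2c and Tmem161b share was not counted. Zfp608 had the most peaks beyond 500 kb, 13, against 6 for Dach1, 4 for Tmem161b, 3 for Tle4, 2 for Mef2c and 0 for Erdr1. By share Zfp608 also led, with 46.4% beyond 500 kb, against 37.5% for Dach1, 17.6% for Tle4, 15.4% for Tmem161b and 10.5% for Mef2c. Its strongest peak, 35.5-fold, lies between those of Dach1 (73.4-fold) and of Tmem161b and Mef2c (29.8-fold, a shared value), and the strongest of Tle4 had 15.7-fold. Median folds were 7.72 for Zfp608, against 8.48 for Mef2c, 8.38 for Tmem161b, 6.40 for Tle4 and 5.89 for Dach1, and the Erdr1 peaks could not be placed on the list.

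**Figure D5:**
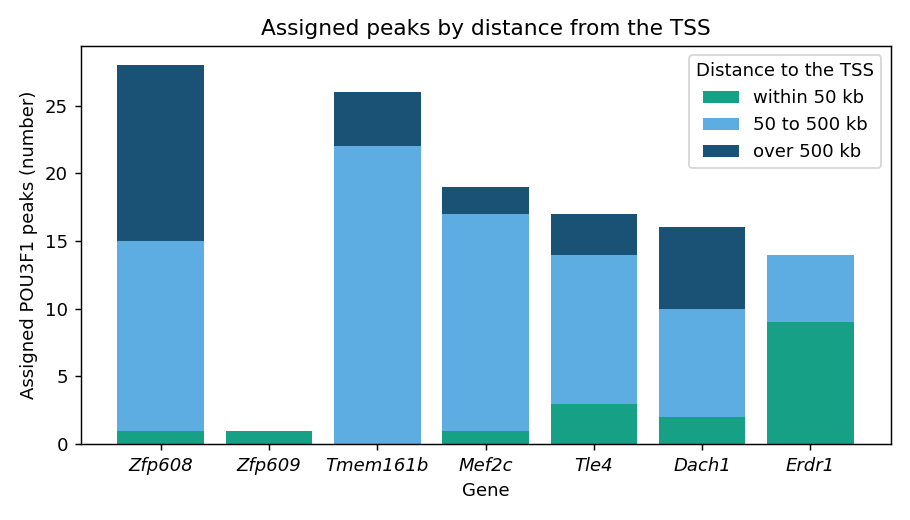
Number of assigned POU3F1 peaks per gene, stacked by distance from the TSS, for Zfp608, its paralog Zfp609 and the 5 genes nearest to Zfp608 in number. Of the 28 Zfp608 peaks 13 lie beyond 500 kb, the tallest such section among the genes shown, and the 1 peak of Zfp609 lies within 50 kb.

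The paralog Zfp609 had 1 modest peak, close to its start. It lay 6078 bp upstream of the TSS, at chromosome 9: 65833534 to 65833751 (mm10), with 4.98-fold enrichment, a summit pileup of 10 fragments over a background of 1.21 and a length of 218 bp. Its fold exceeded that of 27.9% of the list. The interval lies within the body of Trip4, a gene of a transcriptional coactivator, and was assigned to Zfp609 and to Pclaf, a gene of a PCNA-binding protein of DNA replication, 56595 bp from the TSS of that gene. At 10 fragments it is shallower than all but 1 of the 28 Zfp608 peaks. Over all 21887 protein-coding genes, an assigned peak was found for 10.2%, and a peak at most 50 kb from the TSS for 3.67%.

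The settings of the paralogs differ in size. Between its protein-coding neighbours, Zfp608 has a span of 2.43 Mb with 31 peaks, against a span of 0.139 Mb with no peak for Zfp609, whose own peak lies beyond the edge of that span. The gene bodies are of like length, 105 kb for Zfp608 and 136 kb for Zfp609. Several genes next to them are relatives too, a set picked after the gene order was seen. On chromosome 18 lie Csnk1g3, Ppic, Snx24 and Snx2, and on chromosome 9 lie their relatives Csnk1g1, Ppib, Snx22 and Snx1, a casein kinase, a cyclophilin and a pair of sorting nexin genes on each. Of these 8 genes, Csnk1g3 had assigned peaks, 11 in number and all shared with Zfp608, and the other 7 had none. Over all protein-coding genes, 10.2% had an assigned peak. The count for Csnk1g3 is thus not separate from that of Zfp608.

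Genes tied to the paralogs by known partnerships or, for Rag1 and Rag2, by known repression had peaks at about the rate of other genes. Of 27 listed genes 26 were in the annotation, and 3 of them, 11.5%, had an assigned peak, against 10.2% of all protein-coding genes. A peak at most 50 kb from the TSS was found for 2 of them, 7.69%, against 3.67%. Cohesin and its loader had a peak in 1 of 7 genes, Stag1, a cohesin subunit gene (8.23-fold, 18 fragments, 61414 bp upstream). Nipbl and Mau2, which encode the loader, had none. The genes counterpart to partners of fly Brakeless, Atn1, Rere and Nr2e1, had none either.

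Rag2 had 5 assigned peaks and Rag1 none. Those of Rag2, which encodes a subunit of the V(D)J recombinase, lay 32003, 44124, 90766, 165590 and 810940 bp upstream of its TSS on chromosome 2. Their folds were 6.19, 3.64, 7.98, 6.39 and 7.37, from 37, 40, 48, 12 and 14 fragments. All 5 thus lay inside the range of the Zfp608 peaks in fold and in fragments. Rag1 also lies on chromosome 2, and a domain stops at the basal domain of the next gene. Whether Rag1 could have been given these peaks was not examined.

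Integrator, which processes small nuclear RNAs and ends the transcripts of paused polymerase, had a peak in 1 of 14 genes. This was the only promoter peak among the listed genes, at Ints6, 140 bp upstream of the TSS at chromosome 14: 62761131 to 62761373. It had 4.39-fold enrichment and 44 fragments over a background of 9.25. It covers 232 of the 300 bp of the Ints6 promoter in the RefSeq table (GRCm38.p6, chr14:62761063-62761362, minus strand, 250 bases before to 50 after the start). The promoter is shown because most of it lies under this peak. The end of the printed sequence, below 62761131, lies outside the peak.

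Ints6 promoter: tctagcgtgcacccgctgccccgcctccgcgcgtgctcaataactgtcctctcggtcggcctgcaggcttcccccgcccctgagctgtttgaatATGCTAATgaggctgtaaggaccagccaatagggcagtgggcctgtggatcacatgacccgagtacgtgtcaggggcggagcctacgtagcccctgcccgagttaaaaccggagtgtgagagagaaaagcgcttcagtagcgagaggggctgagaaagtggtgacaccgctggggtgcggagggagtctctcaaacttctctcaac

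The capitals mark 8 bases that match the POU octamer, ATGCAAAT or its reverse complement ATTTGCAT, in 7 of 8 places. The octamer itself and its first 6 bases, ATGCAA, were not found in this window on either strand. Of 32851 promoters in the table, 1.74% hold the octamer, 10.7% its first 6 bases and 17.3% a stretch that differs from the octamer in 1 place, so such a match is common. The search for near matches was added after the sequence was seen. The promoters of Zfp608 and Zfp609 were not searched.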

How the data were processed

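The members and gene lists were chosen with earlier results of these data known. Bowtie2, MACS2 and deepTools, with build mm10, are named in the submitters' processing notes; no settings are stated. The deposited peak list holds a summit fold (a ratio), p- and q-values as −log10, and a score, made by the authors' peak caller for the 1 POU3F1 library; use of IgG as its control is not stated. They were used only within this list. The authors' deposited gene table, per the file headers, is from GREAT 4.0.4 on mm10, with basal domains of 5000 bp upstream and 1000 bp downstream, extension up to 1000000 bp and curated domains.

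Library depth is unknown. Summit pileup and background were recovered from fold and p-value, since in MACS2 a fold is (pileup + 1) divided by (background + 1) and p-values are Poisson, where a whole pileup gave the deposited −log10 p within 0.001. This held for 2609 of 2652 peaks (98.4%), all Zfp608 peaks included, and was tested on simulated data. Distances were placed on peak midpoints within 1 bp. For Zfp609 and Ints6, which had more than 1 possible placement, the one with the TSS nearest the annotated gene end was taken. Gene bodies came from RefSeq on GRCm38.p6, the assembly of mm10, and of the 2323 genes 2184 matched by symbol and 86 by synonym. Peaks overlapped a gene with at least 1 bp. Genes named were the members, genes that share their peaks or lie in or beside the window, and the 5 genes nearest in number of peaks. Partner genes, Rag1 and Rag2 were named too. Alternatives were stricter q-values, shorter distances, other joining distances and, chosen after seeing the data, a minimum pileup of 20 fragments. No test was run, since there was 1 library. Analyses used Python 3.11.15, numpy, pandas and scipy 1.17.1.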

Additional observations from a re-analysis of the deposited data

How the results depend on the processing

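No paired analysis was possible because each antibody had 1 library and no result comes from a test. Of 26 recomputed values, 21 stayed within 1.5 times the reported one. The count of 28 Zfp608 peaks depended on distance, with 15 within 500 kb and 1 within 50 kb of the TSS; stricter q-values of 0.01 and 0.001 left 27 and 25. With a summit pileup of at least 20 fragments, chosen after seeing the data, Zfp609 kept 0 peaks, the window 20 and the span 8.22 peaks per Mb, and Zfp608 kept 20. These drops follow from the construction of each alternative, which leaves out peaks. Groups numbered 17 and 21 with joining distances of 25 and 10 kb. Depth limits single peaks, since 8 of the 28 rest on fewer than 20 fragments.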
